A study of Mus musculus with 24 samples.

Results

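The unfolded protein response and the chaperones of the endoplasmic reticulum (ER) were described across 4 groups of mouse liver through a list of 37 genes. The list was given by gene symbol and its rule uses no measured value, although it was drawn up with earlier results of these data known. All 37 symbols were found among the 27248 gene symbols of the array, on 72 probes. All 37 genes also passed the filter on dim signals, and 36 of them were well above background in all 22 animals. The exception was Bhlha15, which was well above background in 15 animals. The genes were divided by role into 6 sensors and transcription factors, 11 chaperones and their partners, 6 enzymes of oxidative folding, 9 components of ER-associated degradation and 5 components of the translocation machinery.

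Liver RNA came from male mice of the C57Bl/6J background aged 8 weeks, all taken at ZT16, which counts hours from the start of the light period. WT mice kept Ppara in the liver and LKO mice had a liver-specific deletion of Ppara, a nuclear receptor that drives fat oxidation genes during fasting. Neither the promoter that drove the deletion nor the part of the gene removed is given in the sources used here. Mice were fed freely or fasted for 24 h, which gave 5 WT animals in each feeding state and 6 LKO animals in each. All groups shared the strain, the chow diet and the time of death. The labels name 24 arrays of 22 animals, since 1 fed WT and 1 fasted WT animal were each run on 2 arrays, whereas the series text states 6 mice per group. Nothing in the labels says more about how the animals were related, so p-values measure the spread between these animals.

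Each array gave 1-colour (Cy3) fluorescence. A level below is the log2 signal of the gene's brightest probe relative to the 75th percentile of its array, and a change is a difference of group mean levels in log2 units, with its standard error (SE) from a limma model fitted to all 22 animals. A gene is called, and is said to rise or fall, where the Benjamini-Hochberg adjusted p over 17215 genes was below 0.05. The 75th percentile ranged from 451 to 621 intensity units and the share of probes well above background from 52.2% to 60.6% over the 24 arrays. Precision is limited by how many animals there were. At its brighter probe, Ppara lay between 4.99 and 5.48 in fed WT and between 3.91 and 4.94 in fed LKO mice, and between 5.68 and 6.03 in fasted WT and 4.82 and 5.14 in fasted LKO mice. The position of that probe relative to the deletion is not known. All 10 hepatocyte markers on the array were well above background, with summed linear levels of 4802 to 5682 over the animals. In whole liver, fewer cells of a type and less RNA per cell cannot be told apart.

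The ER folds secreted and membrane proteins, a large task in hepatocytes, which make most plasma proteins. When unfolded proteins accumulate, the ER membrane sensors IRE1 (encoded by Ern1), PERK (Eif2ak3) and ATF6 signal to the nucleus. IRE1 splices the mRNA of the transcription factor XBP1, PERK phosphorylates the translation factor eIF2alpha and so slows protein synthesis, and ATF6 is released from the membrane by cleavage, after which chaperone, folding enzyme and degradation genes are switched on. The arrays read RNA levels, so neither Xbp1 splicing, PERK activity nor ATF6 cleavage was measured.

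Many targets of these factors carry an ER stress element near their start site, and the promoters were searched for it. RefSeq promoters (GRCm38.p6), of which the 250 bases before the start site were searched, were at hand for 30 of the 37 genes, without Atf6, Derl1, Hyou1, Manf, Sec61a1, Ssr2 and Tram1. The full element, a CCAAT box and a CCACG box with 9 bases of any kind between them, on either strand, was found in 10 of these 30 genes (33.3%), against 35 of all 27025 genes with a promoter entry (0.13%) and 37 of 32851 promoters (0.113%). Those 10 were Calr, Canx, Creld2, Derl3, Dnajc3, Ero1lb, Hsp90b1, Hspa5, Pdia6 and Syvn1. A related element, ATTGG and CCACG with 1 base between them, was found in Herpud1 and in 10 genes in all. The CCACG core alone occurred in 22 of the 30 genes (73.3%) and in 31% of all genes, and CCACG is part of both longer motifs. The element TGACGTGG was found in 0 of the 30 genes and in 0.603% of all genes, and a direct repeat of AGGTCA with 1 base between, the form read by PPARA, in 0 of the 30 and 0.0407% of all genes. A match is a description of these letters in this window only. The stretches below, each with 20 bases on either side of the element, are shown to set genes that were called beside one that was not: Hspa5, Pdia6, Syvn1, Ero1lb and Herpud1 were called in at least 1 comparison below, and Hsp90b1, with 2 elements, was called in none. Derl3, whose stretch is not shown, was also called in none in the fit to all animals. Capitals mark the element. The full element reads CCAAT to CCACG where it lies on the strand of the gene and CGTGG to ATTGG where it lies on the opposite strand, and the related element of Herpud1 reads ATTGG to CCACG.
Hspa5 (chr2:34772005-34772063, plus strand): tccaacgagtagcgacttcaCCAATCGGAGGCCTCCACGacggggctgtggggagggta
Pdia6 (chr12:17266471-17266529, plus strand): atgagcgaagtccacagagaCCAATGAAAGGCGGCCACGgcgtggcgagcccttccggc
Syvn1 (chr19:6046512-6046570, plus strand): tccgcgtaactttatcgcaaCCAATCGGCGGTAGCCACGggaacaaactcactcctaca
Ero1lb (chr13:12565662-12565720, plus strand): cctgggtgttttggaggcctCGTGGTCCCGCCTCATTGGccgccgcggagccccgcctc
Herpud1 (chr8:94386357-94386407, plus strand): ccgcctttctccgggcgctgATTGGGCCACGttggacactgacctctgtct
Hsp90b1 (chr10:86705513-86705676, minus strand): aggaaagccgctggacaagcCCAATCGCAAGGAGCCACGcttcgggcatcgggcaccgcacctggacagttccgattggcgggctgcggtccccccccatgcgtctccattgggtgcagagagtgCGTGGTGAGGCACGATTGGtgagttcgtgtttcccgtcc

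The first comparison asked how the list responded to a 24 h fast in WT liver. Nearly the whole list was lower in fasted WT mice: 31 of 37 genes fell and 1, Atf6, rose. Over all 17215 genes 21.8% fell and 22.6% rose, that is, 44.4% were called. The median change of the list was -0.78, against 0.00 over all genes, and in 31 of 37 genes the fed and fasted animals did not overlap, as in 34.4% of all genes. The 5 genes that were not called were Hsp90b1, P4hb, Derl3, Herpud1 and Os9. By role, 5 of 6 sensors and transcription factors, 10 of 11 chaperones, 5 of 6 folding enzymes, 6 of 9 degradation components and all 5 translocation components fell.

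The same comparison in LKO liver gave 25 genes that fell and 4 that rose: Atf6, Eif2ak3, Herpud1 and Os9. Over all genes 26.9% fell and 22.9% rose with fasting in LKO mice, that is, 49.8% were called. The list's median change was -0.42, against -0.04 over all genes, and 18 of 37 genes did not overlap between fed and fasted LKO animals, as in 27.3% of all genes. All 5 translocation components and all 6 folding enzymes fell, but 5 of 11 chaperones did so. The change was less negative or more positive in LKO than in WT mice for 31 of the 37 genes. Of the 24 genes that fell in both genotypes, 19 fell by less in LKO mice. Neither count was made over all genes, where the median of the LKO change minus the WT change was -0.04. Fed LKO replicate 3 had the highest level of its group for 27 of the 37 genes. Without it 20 genes fell in LKO mice, and Creb3l2, Dnajc3, Hyou1, Manf and Pdia4 were no longer called, with changes from -0.14 to -0.44 and adjusted p between 0.069 and 0.127. Leaving out fasted LKO replicate 5 instead added the chaperones Calr, Creld2 and Sdf2l1 to the genes that fell (adjusted p = 0.038, 0.0434 and 0.0211).

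**Figure D1:**
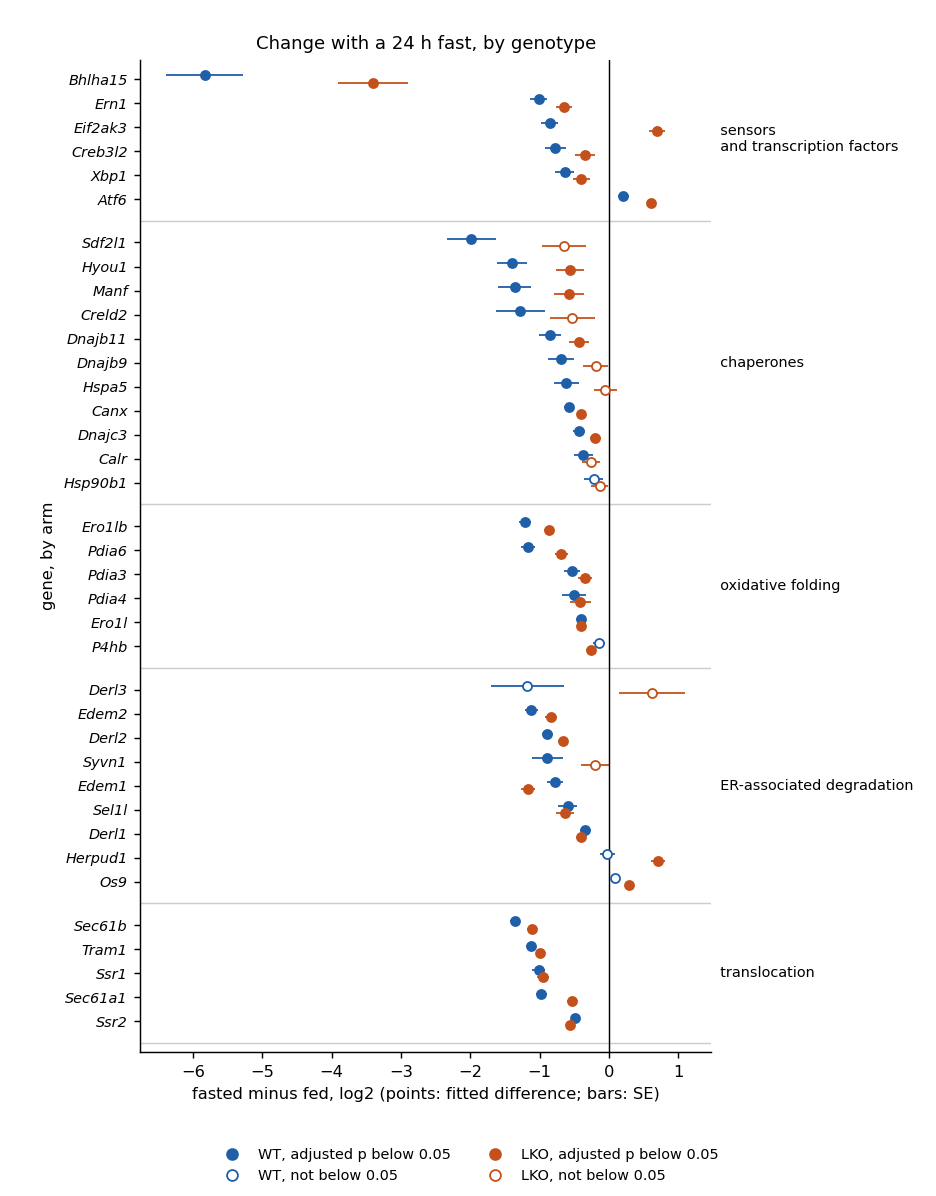
Change with a 24 h fast (fasted minus fed, log2, horizontal axis) for each of the 37 genes by role, in WT (blue) and LKO mice (orange), with SE bars and filled points where the limma adjusted p was below 0.05. Most points lie left of 0 and the orange points mostly lie to the right of the blue, with Eif2ak3 at -0.86 in WT and 0.69 in LKO; Bhlha15 in fasted WT mice rests on signals below background.

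The genotypes were then compared when fed and when fasted. When fed, 0 of the 37 genes were called between LKO and WT mice, where 3.96% of all genes were called. Only 4 genes had an unadjusted p below 0.05 in limma (10.8% of the list, against 15.9% of all genes), namely Edem1, Os9 and Ssr2 on the higher side in LKO mice and Herpud1 on the lower. The list's median difference was -0.00. The 95% intervals of the differences ran from -0.17 at the lowest to 0.24 at the highest for the translocation components and from -0.85 to 0.65 for the chaperones, so that sizeable differences in single chaperones were not detectable with these animals.

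When fasted, 17 of the 37 genes were higher in LKO than in WT mice and 0 were lower in limma, where 17.9% of all genes were higher and 20% lower, 37.9% in all. At an unadjusted p below 0.05, 20 were higher and 0 lower, against 3758 higher and 4130 lower of all 17215 genes, 45.8% in all. The median difference was 0.29, against -0.01 over all genes, and 14 genes did not overlap between the genotypes, as in 25.3% of all genes. The 17 comprised 5 of 6 sensors and transcription factors (Xbp1, Atf6, Eif2ak3, Creb3l2 and Bhlha15), 4 of 11 chaperones (Hspa5, Hyou1, Sdf2l1 and Manf), 1 of 6 folding enzymes (Pdia6), 5 of 9 degradation components (Edem2, Derl2, Herpud1, Syvn1 and Os9) and 2 of 5 translocation components (Sec61b and Sec61a1). This comparison shares its animals with both fasting comparisons, so its values are set beside theirs and are not independent of them.

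**Figure D2:**
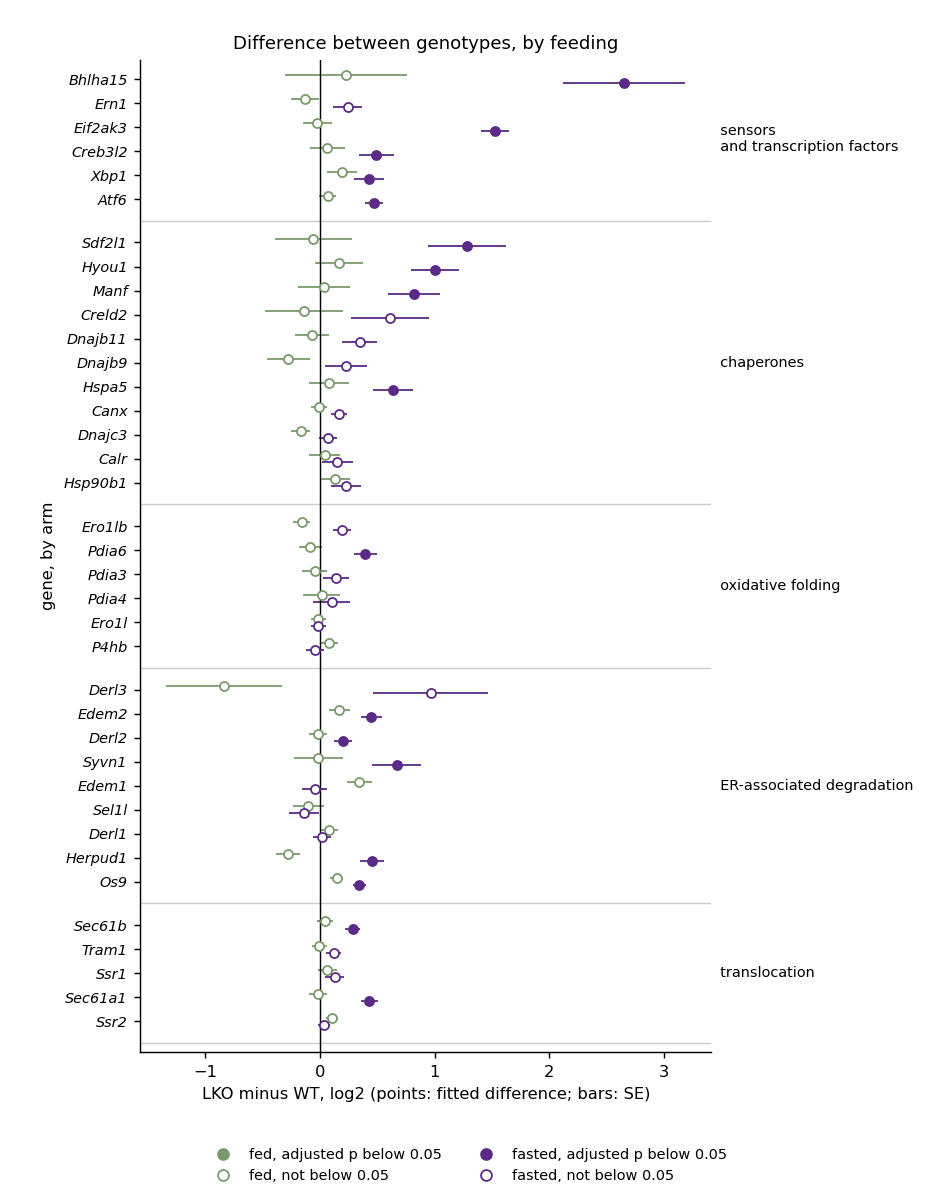
Difference between genotypes (LKO minus WT, log2, horizontal axis) for each of the 37 genes by role, in fed (green) and fasted mice (purple), with SE bars and filled points where the limma adjusted p was below 0.05. No fed point is filled, and 17 fasted points are filled, all to the right of 0, with the fasted Bhlha15 point resting on signals below background in WT mice.

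Whether the fasting response itself differed between genotypes was tested by the interaction term, the change in LKO mice minus the change in WT mice. It was above 0 and called for 7 genes (Eif2ak3, Bhlha15, Herpud1, Pdia6, Sec61a1, Atf6 and Ero1lb) and below 0 and called for 0 genes, where 7.71% of all genes were called above 0 and 10.8% below, 18.5% in all. Among the 37 genes, 17 had an interaction above 0 and 1 below 0 at an unadjusted p below 0.05. Over all 17215 genes, 2298 were above 0 and 3120 below at that threshold, 31.5% in all. The list's median was 0.28, against -0.04 over all genes. Without fed LKO replicate 3, 18 genes were called, all above 0, while 23.3% of all genes were called. The added genes were Creb3l2, Hspa5, Dnajb11, Dnajc3, Hyou1, Sdf2l1, Manf, Edem2, Derl3, Syvn1 and Os9, so the chaperones went from 0 of 11 to 6 of 11. That animal was singled out because it was high for these same genes. Fasted LKO replicate 5 was the highest of its group for 31 of the 37 genes. Without it the interaction of Ero1lb was no longer called, and that of Edem1 was called below 0 (limma adjusted p = 0.046).

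The mean level of all 37 genes in an animal ranged from 3.86 to 4.03 in fed WT, 2.92 to 3.16 in fasted WT, 3.73 to 4.34 in fed LKO and 3.26 to 3.89 in fasted LKO mice. Fasted WT animals thus lay below all others, and fed and fasted LKO animals overlapped. The mean includes Bhlha15, whose signals in fasted WT mice were below background. The highest fed LKO animal was replicate 3 at 4.34, and the highest fasted LKO animal was replicate 5 at 3.89, which was also the highest of its group for 31 of the 37 genes.

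**Figure D3:**
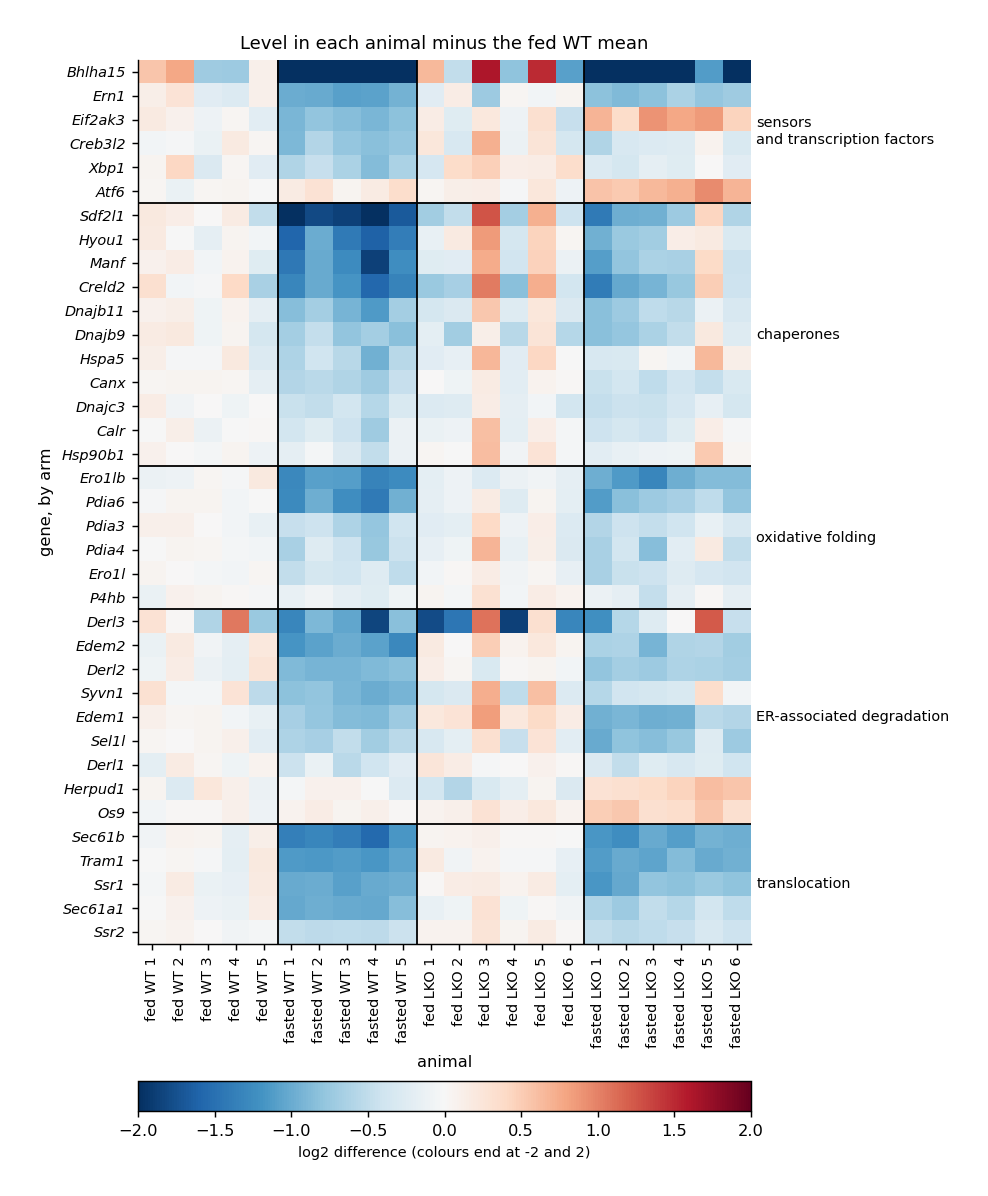
Level of each of the 37 genes (rows, by role) in each of the 22 animals (columns, by group) minus the mean of fed WT mice, in log2 units from blue (lower) to red (higher), with colours ending at -2 and 2. The fasted WT block is blue for nearly all genes, the fasted LKO block is paler, Atf6, Eif2ak3, Herpud1 and Os9 are red in it, and fed LKO replicate 3 and fasted LKO replicate 5 are redder than the rest of their groups in many rows.

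Among the sensors, Eif2ak3 (PERK) moved in opposite directions in the genotypes. Its levels were 0.85, 0.76, 0.58, 0.72 and 0.47 in fed WT mice and -0.24, -0.12, -0.18, -0.24 and -0.15 in fasted WT mice. In LKO mice the lowest, median and highest levels were 0.21, 0.70 and 0.99 when fed and 1.04, 1.40 and 1.57 when fasted. Every fasted WT animal was below every fed animal, and every fasted LKO animal was above every animal of the other groups. Eif2ak3 fell by 0.86 in WT (SE 0.13, adjusted p = 1.8e-05) and rose by 0.69 in LKO mice (SE 0.12, adjusted p = 5.74e-05). The interaction was 1.55 (SE 0.17, adjusted p = 5.76e-06), and fasted LKO mice were 2.88-fold higher than fasted WT mice (log2 1.53, SE 0.12, adjusted p = 8.21e-09). The probe lies on chromosome 6 at 70855152 to 70855211 (mm9). A dimmer Eif2ak3 probe fell in WT mice too (-0.99) and was also higher in fasted LKO than in fasted WT mice (0.99), but it was not called with fasting in LKO mice (-0.17, adjusted p = 0.183 over probes).

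Atf6 was the one gene of the list that rose in both genotypes. Its levels were 1.68, 1.51, 1.67, 1.69 and 1.63 in fed WT and 1.80, 1.93, 1.69, 1.80 and 1.99 in fasted WT mice. LKO mice had 1.53, 1.72 and 1.87 (lowest, median, highest) when fed and 2.15, 2.30 and 2.58 when fasted. The WT groups overlapped by 1 fasted animal, while the fasted LKO animals stood above all others. The rise was 0.21 in WT (SE 0.08, adjusted p = 0.0369) and 0.61 in LKO mice (SE 0.07, adjusted p = 5.83e-07), with an interaction of 0.40 (SE 0.11, adjusted p = 0.0116). In WT the call was lost when fed WT replicate 2 or 5 or fasted WT replicate 2 or 5 was left out (adjusted p up to 0.101), and the mean of the Atf6 probes, 1 of which is dim, gave -0.07.

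Ern1 (IRE1) fell in both genotypes. Its levels were 2.92, 3.07, 2.58, 2.53 and 2.90 in fed WT and 1.82, 1.80, 1.71, 1.73 and 1.85 in fasted WT mice, against 2.08, 2.79 and 2.94 (lowest, median, highest) in fed LKO and 1.92, 2.00 and 2.17 in fasted LKO mice. The WT groups lay well apart, and 1 fed LKO animal reached into the fasted LKO range. Ern1 fell by 1.02 in WT (SE 0.13, adjusted p = 2.17e-06) and by 0.65 in LKO mice (SE 0.12, adjusted p = 0.000104). At this probe neither the interaction of 0.37 (SE 0.17, adjusted p = 0.151) nor the difference of 0.24 between fasted genotypes (SE 0.12, adjusted p = 0.131) was called. The 3 dimmer Ern1 probes gave another answer. All were called higher in fasted LKO than in fasted WT mice (0.82, 0.65 and 0.44), and all had a called interaction (0.73, 0.79 and 0.75, with adjusted p over probes of 0.00759, 0.0288 and 0.0123). With fasting in LKO mice 1 of the 3 fell (-0.52), and the others, at -0.35 and -0.29, were not called.

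Xbp1, whose product is the effector of IRE1, behaved likewise at the level of total RNA. Levels were 6.15, 6.50, 5.81, 6.13 and 5.87 in fed WT and 5.49, 5.63, 5.46, 5.23 and 5.47 in fasted WT mice. The LKO groups gave 5.76, 6.35 and 6.56 (lowest, median, highest) when fed and 5.75, 5.86 and 6.10 when fasted. All fasted WT animals were below all other animals, and the LKO groups overlapped. Xbp1 fell by 0.64 in WT (SE 0.14, adjusted p = 0.000676) and by 0.40 in LKO mice (SE 0.12, adjusted p = 0.0103). When fasted it was 1.34-fold higher in LKO than in WT mice (log2 0.43, SE 0.13, adjusted p = 0.0133), and the interaction was not called (0.24, SE 0.18, adjusted p = 0.418). The mean of the Xbp1 probes gave 0.36 for the fasted genotypes, which was not called. The 2 dimmer Xbp1 probes, at -0.40 and -0.41 with fasting in LKO mice, were not called there (adjusted p over probes 0.0675 and 0.0538).

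The other members of this arm were the transcription factors Creb3l2, an ER-anchored CREB family factor, and Bhlha15 (MIST1), known from secretory cells such as pancreatic acinar cells and plasma cells. Creb3l2 fell by 0.77 in WT (SE 0.16, adjusted p = 0.000396) and by 0.35 in LKO mice (SE 0.14, adjusted p = 0.0475), and the latter call was lost on leaving out any of 18 of the 22 animals (changes from -0.22 to -0.35). Bhlha15 gave -0.47, -0.26, -1.74, -1.75 and -0.92 in fed WT mice and -2.12, -0.95 and 0.59 (lowest, median, highest) in fed LKO mice. Fasted LKO mice were at -5.25, -4.45 and -2.15, and the probe was well above background in 4 of those 6 animals. In fasted WT mice the probe was not well above background on any array, with measured levels of -7.18 to -6.02.

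The fed and fasted animals of Bhlha15 did not overlap in either genotype. It was at least 15.8-fold lower in fasted than in fed WT mice, where the bound sets the fed mean of -1.03 against the lowest signals that were well above background on the fasted arrays (mean -5.02), and the adjusted p of the fit was 7.15e-08. Its fitted change in LKO mice was -3.41 (SE 0.51, adjusted p = 1.21e-05), a size that includes 2 fasted animals not well above background. Set against the same floor, the fasted LKO mean of -4.21 was 1.75-fold higher than in fasted WT mice. That mean includes those 2 animals and replicate 5 at -2.15 (others -5.25 to -4.32), and the bound was not computed without them. The adjusted p of 0.000525 belongs to the fitted difference of 2.65, which uses the fasted WT signals below background. The fitted interaction of 2.42 (SE 0.75, adjusted p = 0.0293) rests on the signals below background. It was not called after normexp background correction (0.33) or in the authors' deposited table (0.71), nor when fed WT replicate 1 or 2, fasted WT replicate 3 or fed LKO replicate 2 or 4 was left out (adjusted p up to 0.0557).

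Markers of exocrine pancreas and plasma cells, cell types in which Bhlha15 is high, were read alongside. Of 12 pancreas markers 8 were tested, and Cpa1 and Cpb1 were never above background. Their summed linear level was 32.7 to 38.1 in fed WT, 16.9 to 18.9 in fasted WT, 20.9 to 42.5 in fed LKO and 16.9 to 18.6 in fasted LKO mice, most of it from Cela1 (mean linear level 27.2 in fed and 9.58 in fasted WT mice). Cela1 and Cela2a fell with fasting in WT mice (-1.51 and -0.73), Cela3b and Amy2a5 rose (0.80 and 0.27), and the other 4 were not called. Between fasted genotypes 2 of the 8 were higher in LKO mice (17.9% of all genes) and 0 lower. Of 9 plasma and B cell markers 7 were tested, Tnfrsf17 was never above background, and the sum was 6.84 to 10.2 in fed WT, 12.1 to 13.7 in fasted WT, 8.77 to 16.1 in fed LKO and 6.04 to 10.6 in fasted LKO mice. Nearly all of it came from Sdc1 (mean linear level 7.96 in fed and 12.2 in fasted WT mice), which hepatocytes also express. With fasting in WT mice Sdc1 and Mzb1 rose (0.63 and 1.08), Ms4a1 fell by 1.09 and the other 4 were not called. Between fasted genotypes Sdc1 was lower (-0.68) and Jchain higher (0.40) in LKO mice. The part of these cells in the levels of the list was not tested.

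**Figure D4:**
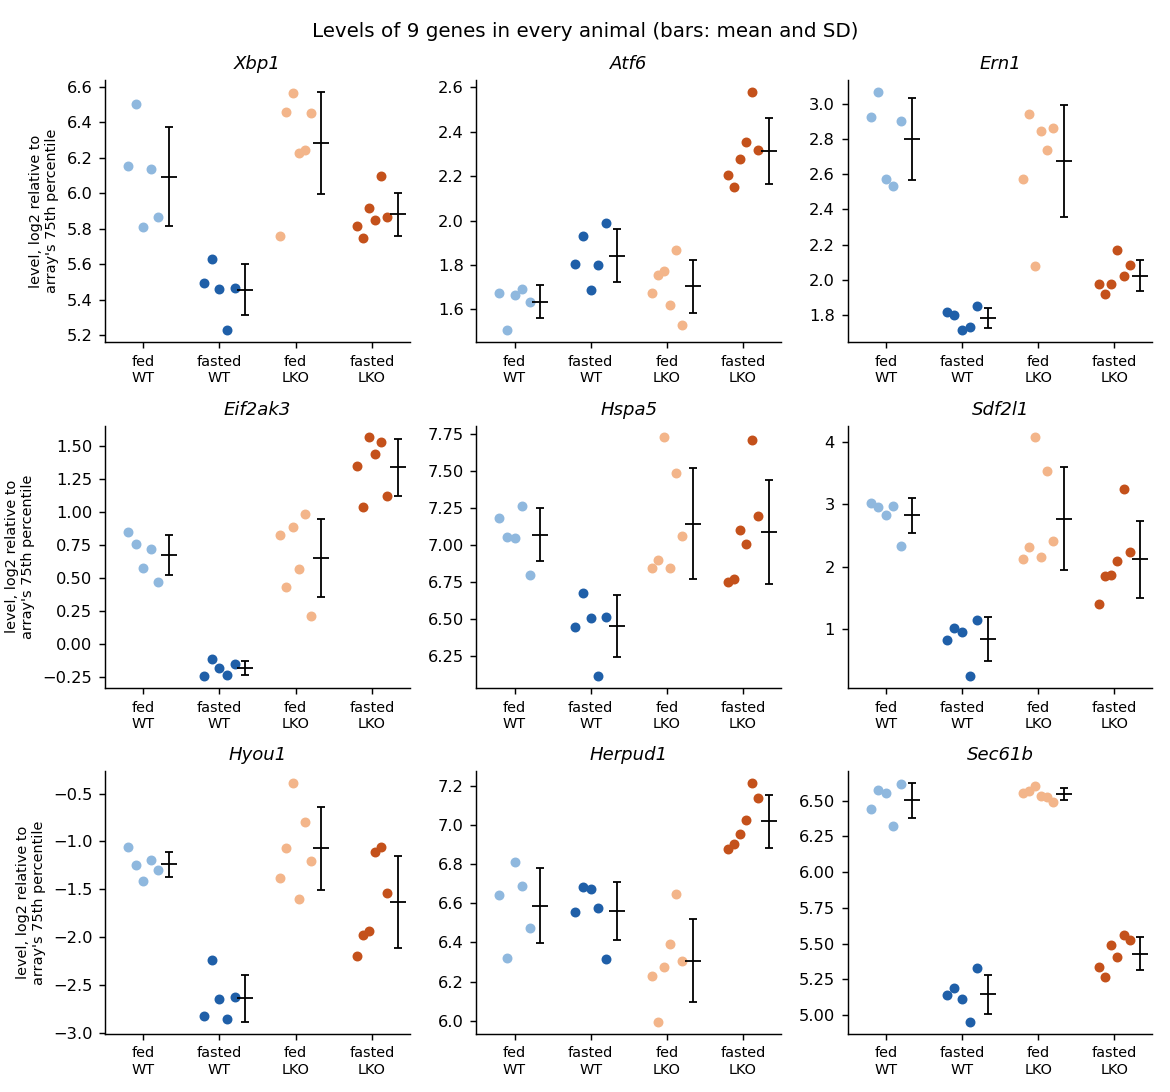
Levels of 9 genes (log2 relative to the 75th percentile of the array, vertical axes of different ranges) in every animal of the 4 groups, with the group mean and SD as bars. Fasted WT animals are the lowest group for Xbp1, Ern1, Eif2ak3, Hspa5, Sdf2l1, Hyou1 and Sec61b, while fasted LKO animals are the highest for Atf6, Eif2ak3 and Herpud1.

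Of the 11 chaperones 10 fell in WT mice and 5 in LKO mice, and for 4 the interaction was above 0 at an unadjusted p below 0.05, none of them called. At that unadjusted threshold 2298 of all 17215 genes had an interaction above 0. Hspa5 (BiP), the Hsp70 that binds unfolded chains and holds the sensors inactive, had levels of 7.18, 7.05, 7.04, 7.26 and 6.79 in fed WT and 6.44, 6.67, 6.51, 6.11 and 6.51 in fasted WT mice. In LKO mice the lowest, median and highest levels were 6.84, 6.98 and 7.72 when fed and 6.75, 7.05 and 7.71 when fasted. The WT groups did not overlap, whereas the LKO groups covered nearly the same range. Hspa5 fell by 0.62 in WT mice (SE 0.18, adjusted p = 0.00922), and its change in LKO mice was -0.06 (SE 0.17, 95% interval -0.40 to 0.29, adjusted p = 0.808). It was 1.55-fold higher in fasted LKO than in fasted WT mice (log2 0.64, SE 0.17, adjusted p = 0.00663). The interaction of 0.56 was not called (SE 0.25, adjusted p = 0.123), but was called without fed LKO replicate 3 (0.68, SE 0.22, adjusted p = 0.0351). The probe lies on chromosome 2 at 34631913 to 34631972 (mm9).

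Sdf2l1, a stress-inducible partner of BiP and its cochaperones, had the largest fall among the chaperones. Its levels were 3.02, 2.96, 2.82, 2.98 and 2.33 in fed WT and 0.82, 1.01, 0.95, 0.24 and 1.15 in fasted WT mice, against 2.12, 2.36 and 4.07 (lowest, median, highest) in fed LKO and 1.41, 1.98 and 3.25 in fasted LKO mice. Fasted WT animals were below all others, and the LKO groups overlapped. Sdf2l1 fell by 1.99 in WT mice (SE 0.35, adjusted p = 0.000111), while the change of -0.65 in LKO mice was not called (SE 0.32, adjusted p = 0.0999) unless fasted LKO replicate 5 was left out. Fasted LKO mice were 2.43-fold higher than fasted WT mice (log2 1.28, SE 0.34, adjusted p = 0.00498). Its interaction of 1.34 missed the threshold (SE 0.48, adjusted p = 0.0562) and passed it without fed LKO replicate 3 (1.60, SE 0.41, adjusted p = 0.00806), and also on leaving out fed WT replicate 5, fed LKO replicate 5 or fasted LKO replicate 1.

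Hyou1 (GRP170), the nucleotide exchange factor of BiP, followed the same course. Levels were -1.05, -1.25, -1.42, -1.19 and -1.30 in fed WT and -2.82, -2.24, -2.65, -2.86 and -2.62 in fasted WT mice. The LKO groups spanned -1.60, -1.14 and -0.39 (lowest, median, highest) when fed and -2.20, -1.74 and -1.05 when fasted. Again fasted WT animals lay below all others. Hyou1 fell by 1.40 in WT (SE 0.22, adjusted p = 3.19e-05) and by 0.56 in LKO mice (SE 0.20, adjusted p = 0.0251), the latter not called without fed LKO replicate 3 or 5 or fasted LKO replicate 1, 2 or 3 (adjusted p up to 0.0704). It was 2.00-fold higher in fasted LKO than in fasted WT mice (log2 1.00, SE 0.21, adjusted p = 0.000826), with an interaction of 0.84 (SE 0.30, adjusted p = 0.0568). The other Hyou1 probes differed among themselves. One was not called with fasting in LKO mice (-0.42, adjusted p over probes 0.0929) and had a called interaction (0.89, adjusted p over probes 0.0448). The remaining probes fell in LKO mice, by 0.64 and 1.20 (adjusted p over probes 0.00658 and 0.00616). Their interactions of 0.72 and 1.03 were not called (adjusted p over probes 0.0741 and 0.178).

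Manf, a secreted ER stress protein, gave 4.27, 4.33, 4.14, 4.25 and 3.94 in fed WT and 2.76, 3.18, 2.93, 2.32 and 2.95 in fasted WT mice. In LKO mice it gave 3.81, 4.01 and 4.92 (lowest, median, highest) when fed and 3.08, 3.55 and 4.57 when fasted. Fed and fasted WT animals did not overlap, and fasted LKO animals overlapped with every other group. Manf fell by 1.36 in WT (SE 0.24, adjusted p = 9.56e-05) and by 0.58 in LKO mice (SE 0.22, adjusted p = 0.0325), the latter lost on leaving out fed LKO replicate 3 or 5 or fasted LKO replicate 1, 2, 3 or 4 (adjusted p up to 0.0882). Fasted LKO mice were 1.77-fold higher than fasted WT mice (log2 0.82, SE 0.23, adjusted p = 0.007).

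The remaining chaperones differed in size of response. Creld2, a stress-inducible secreted ER protein, fell by 1.28 in WT mice (SE 0.36, adjusted p = 0.00604), and its change in LKO mice was -0.53 (SE 0.33, adjusted p = 0.187). The LKO change of Creld2 was called only when fasted LKO replicate 5 was left out (adjusted p = 0.0434). The BiP cochaperones of the DnaJ family also fell in WT mice: Dnajb11 by 0.85, Dnajb9 by 0.69 and Dnajc3 by 0.44. In LKO mice Dnajb11 fell by 0.44 and Dnajc3 by 0.20, while Dnajb9 changed by -0.19 and was not called, although its dimmer probe fell by 0.51 (adjusted p over probes 0.0281). The lectin chaperones of the glycoprotein folding cycle, calnexin (Canx) and calreticulin (Calr), fell by 0.58 and 0.37 in WT mice, and Canx fell by 0.41 in LKO mice. Another Canx probe, above background in all animals, moved far less, at -0.07 in WT, where it was not called (adjusted p over probes 0.276), and -0.13 in LKO mice (adjusted p over probes 0.0137). The Calr call in WT was lost on leaving out any of 7 animals (adjusted p up to 0.112). In LKO mice Calr was at -0.26 (adjusted p = 0.0991) and was called only without fasted LKO replicate 5 (adjusted p = 0.038). Hsp90b1 (GRP94), the ER Hsp90, was not called in any comparison, at -0.22 in WT (SE 0.13, adjusted p = 0.189) and -0.13 in LKO mice (SE 0.12, adjusted p = 0.397).

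For Dnajb11 the probes disagreed. The probe used, on chromosome 16 at 22872067 to 22872126 (mm9), and a neighbouring probe fell with fasting, by 0.85 and 0.76 in WT mice and by 0.44 and 0.37 in LKO mice. Another, dimmer probe, annotated to the same gene at 22879612 to 22879671, rose by 1.78 in WT and by 2.99 in LKO mice. It was the only other probe of the list with a called fasting change opposite to that of the probe used, among 32 other probes of 23 genes.

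Of the 6 enzymes of oxidative folding, which make and rearrange disulphide bonds, 5 fell in WT and 6 in LKO mice. Ero1lb, an oxidase that recharges protein disulphide isomerases, had levels of 1.95, 1.97, 2.11, 2.05 and 2.26 in fed WT and 0.78, 0.98, 0.96, 0.74 and 0.81 in fasted WT mice. In LKO mice it had 1.79, 1.91 and 1.99 (lowest, median, highest) when fed and 0.76, 1.09 and 1.20 when fasted. Fed and fasted animals were separate in both genotypes. Ero1lb fell by 1.21 in WT (SE 0.08, adjusted p = 6.92e-10) and by 0.86 in LKO mice (SE 0.07, adjusted p = 1.07e-08). The interaction of 0.35 (SE 0.11, adjusted p = 0.0309) was not called on leaving out any of 7 animals (adjusted p up to 0.062).

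Pdia6, a disulphide isomerase that also binds IRE1, gave 6.43, 6.51, 6.51, 6.41 and 6.45 in fed WT and 5.19, 5.49, 5.22, 5.05 and 5.50 in fasted WT mice. LKO mice gave 6.20, 6.32 and 6.63 (lowest, median, highest) when fed and 5.35, 5.70 and 5.95 when fasted. Fed and fasted animals did not overlap in either genotype, and fasted LKO animals overlapped with fasted WT animals. Pdia6 fell by 1.17 in WT (SE 0.10, adjusted p = 2.72e-08) and by 0.69 in LKO mice (SE 0.09, adjusted p = 4.52e-06), with an interaction of 0.48 (SE 0.14, adjusted p = 0.0218). It was the only folding enzyme called between the fasted genotypes (log2 0.40, SE 0.10, adjusted p = 0.00351).

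Pdia3 (ERp57), the isomerase that works with calnexin and calreticulin, moved less. It was at 4.27, 4.28, 4.18, 4.13 and 4.03 in fed WT and 3.73, 3.76, 3.56, 3.40 and 3.79 in fasted WT mice, and at 3.90, 4.03 and 4.59 (lowest, median, highest) in fed LKO and 3.60, 3.77 and 4.03 in fasted LKO mice. The WT groups were apart and the LKO groups overlapped. Pdia3 fell by 0.53 in WT (SE 0.11, adjusted p = 0.000739) and by 0.35 in LKO mice (SE 0.10, adjusted p = 0.00874). Ero1l, the other ERO1 oxidase, fell by 0.40 in both genotypes (adjusted p = 8.09e-05 in WT and 2.21e-05 in LKO mice), and its interaction of -0.00 had a 95% interval of -0.20 to 0.20. Pdia4 fell by 0.50 in WT and by 0.42 in LKO mice. The WT call was lost without fasted WT replicate 4 (adjusted p = 0.058), and the LKO call without fed LKO replicate 3 or 5 or fasted LKO replicate 1, 3 or 6 (adjusted p up to 0.0891). P4hb (PDI) fell in LKO mice, by 0.27 (SE 0.07, adjusted p = 0.00476), and was at -0.15 in WT mice (SE 0.08, adjusted p = 0.151).

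Components of ER-associated degradation, which recognise misfolded proteins and pass them to the cytosol, both rose and fell. Edem1, a lectin that hands misfolded glycoproteins to degradation, had levels of 3.71, 3.65, 3.66, 3.56 and 3.46 in fed WT and 2.94, 2.83, 2.74, 2.73 and 2.89 in fasted WT mice. It lay at 3.75, 3.85 and 4.44 (lowest, median, highest) in fed LKO and 2.63, 2.67 and 3.06 in fasted LKO mice. Fed animals were above fasted animals in both genotypes, and all fed LKO animals were above all fed WT animals, the only such separation among the 37 genes, where 3.67% of all genes had one. Edem1 fell by 0.78 in WT (SE 0.11, adjusted p = 1.16e-05) and by 1.17 in LKO mice (SE 0.10, adjusted p = 1.63e-08). The fed difference of 0.34 was not called (SE 0.11, adjusted p = 0.0891), nor was the interaction of -0.38 (SE 0.15, adjusted p = 0.0876), which was called only when fasted LKO replicate 5 was left out (adjusted p = 0.046). A dimmer Edem1 probe gave a smaller fed difference of 0.13 and an interaction of -0.14, neither called (adjusted p over probes 0.582 and 0.558).

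Edem2, which starts mannose trimming of such glycoproteins, gave -0.29, 0.03, -0.22, -0.33 and 0.06 in fed WT and -1.33, -1.22, -1.15, -1.22 and -1.44 in fasted WT mice. LKO mice gave -0.14, -0.03 and 0.34 (lowest, median, highest) when fed and -1.08, -0.77 and -0.73 when fasted. Fasted animals were below fed animals in both genotypes, and fasted LKO animals were above fasted WT animals. Edem2 fell by 1.12 in WT (SE 0.10, adjusted p = 1.95e-08) and by 0.84 in LKO mice (SE 0.09, adjusted p = 1.53e-07), and was 1.36-fold higher in fasted LKO than in fasted WT mice (log2 0.45, SE 0.09, adjusted p = 0.000732).

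Derl2, a derlin of the export complex, was at 6.13, 6.37, 6.09, 6.02 and 6.47 in fed WT and 5.33, 5.29, 5.29, 5.33 and 5.38 in fasted WT mice. It was at 5.91, 6.25 and 6.34 (lowest, median, highest) in fed LKO and 5.43, 5.54 and 5.60 in fasted LKO mice. Fed and fasted animals were separate in both genotypes. Derl2 fell by 0.89 in WT (SE 0.08, adjusted p = 4.13e-08) and by 0.67 in LKO mice (SE 0.07, adjusted p = 3.35e-07). The difference of 0.21 between fasted genotypes (SE 0.08, adjusted p = 0.0431) lost its call on leaving out any of 10 animals (adjusted p up to 0.0851) and was not called at the other Derl2 probe (0.15, adjusted p over probes 0.154).

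Herpud1, a scaffold of the degradation complex at the ER membrane, did not follow the rest, and was singled out after its values were seen. Its levels were 6.64, 6.32, 6.81, 6.69 and 6.47 in fed WT and 6.55, 6.68, 6.67, 6.57 and 6.31 in fasted WT mice. In LKO mice they were 5.99, 6.29 and 6.65 (lowest, median, highest) when fed and 6.88, 6.99 and 7.21 when fasted. The WT groups overlapped, and every fasted LKO animal was above all other animals. The change was -0.03 in WT (SE 0.11, adjusted p = 0.865) and a rise of 0.71 in LKO mice (SE 0.10, adjusted p = 5.79e-06), with an interaction of 0.74 (SE 0.15, adjusted p = 0.00158). Os9, a lectin of the same complex, likewise rose in LKO mice (0.28, SE 0.05, adjusted p = 0.000218) and was not called in WT mice (0.08, SE 0.06, adjusted p = 0.29), but its interaction of 0.20 was not called (SE 0.08, adjusted p = 0.0909).

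Syvn1 (HRD1), the ubiquitin ligase of the complex, fell by 0.89 in WT mice (SE 0.22, adjusted p = 0.00271), was at -0.21 in LKO mice (SE 0.20, adjusted p = 0.431), and was 1.59-fold higher in fasted LKO than in fasted WT mice (log2 0.67, SE 0.21, adjusted p = 0.0172). Its partner Sel1l fell by 0.60 in WT and by 0.64 in LKO mice, with an interaction of -0.04 (SE 0.19). Of the 2 dimmer Sel1l probes, 1 fell in both genotypes. The other was not called with fasting in WT mice (-0.10, adjusted p over probes 0.51) and was called lower in fasted LKO than in fasted WT mice (-0.45, adjusted p over probes 0.00205). Derl1 fell by 0.34 in WT and by 0.41 in LKO mice, but its dimmer probe was not called in either (-0.19 and 0.02, adjusted p over probes 0.174 and 0.872). Derl3 was spread widely within groups: fed WT mice had 1.41, 1.14, 0.52, 2.17 and 0.37, fasted WT mice -0.18, 0.23, 0.09, -0.70 and 0.29, fed LKO mice -0.75, -0.25 and 2.21 (lowest, median, highest) and fasted LKO mice -0.10, 0.76 and 2.36. The WT groups did not overlap and the LKO groups did. None of its 5 comparisons was called in the fit to all animals, but its change with fasting in WT mice (-1.18, adjusted p = 0.0349) and its interaction (2.18, adjusted p = 0.0142) were called without fed LKO replicate 3, which changes the spread shared by all groups.

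**Figure D5:**
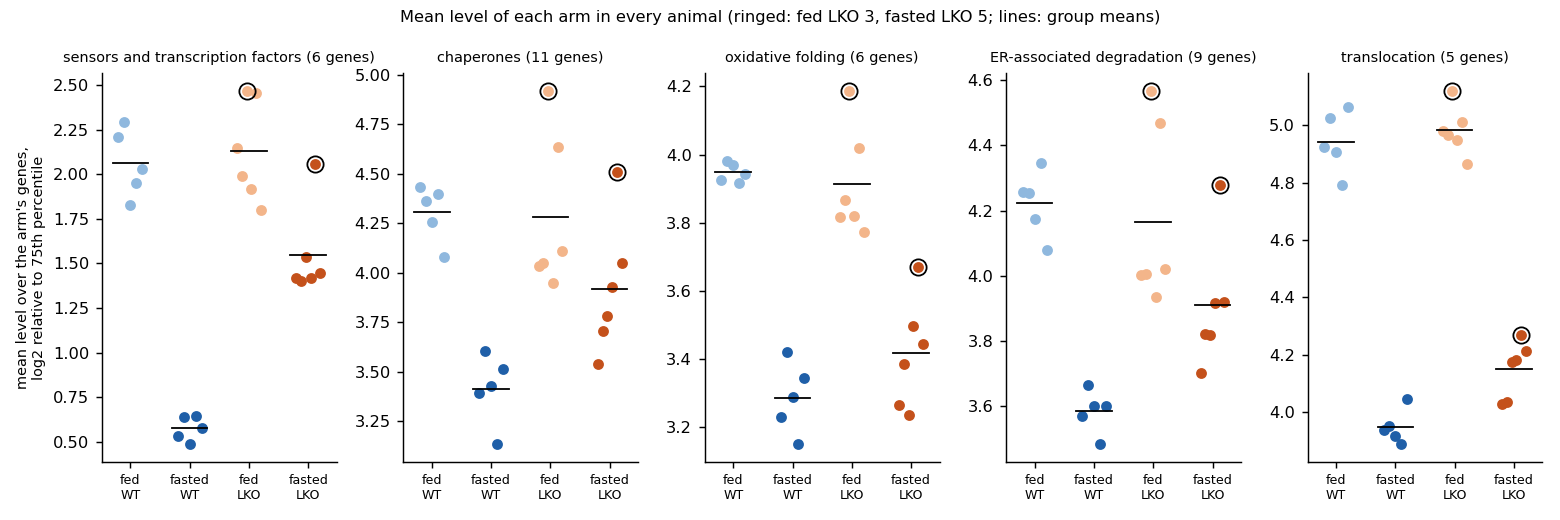
Mean level over the genes of each role (log2 relative to the 75th percentile of the array, vertical axes of different ranges) in every animal of the 4 groups, with lines at the group means and rings around fed LKO replicate 3 and fasted LKO replicate 5. Fasted WT animals are below fed WT animals in every panel, and the ringed animals are the highest of their group. Fasted LKO sensors and transcription factors lie between 1.40 and 2.06 against 0.49 to 0.64 in fasted WT. That mean includes Bhlha15, which rests on signals below background in fasted WT mice, so the size of this gap is partly set by such signals.

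The translocation machinery, which moves new chains into the ER, fell in both genotypes, all 5 genes in each. Sec61b, a subunit of the channel, had levels of 6.44, 6.57, 6.55, 6.32 and 6.62 in fed WT and 5.14, 5.19, 5.11, 4.95 and 5.33 in fasted WT mice, and 6.49, 6.54 and 6.60 (lowest, median, highest) in fed LKO and 5.27, 5.45 and 5.56 in fasted LKO mice. More than 1 log2 unit separated fed from fasted WT means, with no overlap in either genotype. Sec61b fell by 1.36 in WT (SE 0.07, adjusted p = 3.81e-11) and by 1.11 in LKO mice (SE 0.06, adjusted p = 6.02e-11), and its interaction of 0.24 was not called (SE 0.10, adjusted p = 0.087). Fasted LKO mice were 1.22-fold higher than fasted WT mice (log2 0.29, SE 0.07, adjusted p = 0.00231).

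Tram1, a membrane protein beside the channel, was at 2.73, 2.78, 2.72, 2.55 and 2.94 in fed WT and 1.61, 1.60, 1.62, 1.58 and 1.69 in fasted WT mice. It was at 2.59, 2.72 and 2.92 (lowest, median, highest) in fed LKO and 1.63, 1.74 and 1.87 in fasted LKO mice. Fed and fasted animals were again separate in both genotypes. Tram1 fell by 1.13 in WT (SE 0.07, adjusted p = 2.04e-10) and by 1.00 in LKO mice (SE 0.06, adjusted p = 1.8e-10), and the interaction of 0.13 had a 95% interval of -0.06 to 0.32.

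Ssr1, a subunit of the translocon-associated protein complex, gave 4.23, 4.43, 4.14, 4.10 and 4.45 in fed WT and 3.27, 3.27, 3.19, 3.26 and 3.29 in fasted WT mice. LKO mice gave 4.08, 4.38 and 4.44 (lowest, median, highest) when fed and 3.10, 3.46 and 3.54 when fasted. No fed animal overlapped with a fasted one. Ssr1 fell by 1.02 in WT (SE 0.09, adjusted p = 1.91e-08) and by 0.95 in LKO mice (SE 0.08, adjusted p = 8.54e-09), with an interaction of 0.06 (95% interval -0.18 to 0.31). Ssr2, of the same complex, fell by 0.49 in WT and by 0.56 in LKO mice. Sec61a1, the channel itself, was the one translocation gene with a called interaction: it fell by 0.98 in WT (SE 0.08, adjusted p = 9.85e-09) and by 0.53 in LKO mice (SE 0.07, adjusted p = 4.46e-06), and the interaction was 0.45 (SE 0.11, adjusted p = 0.00685). Of 2 dimmer Sec61a1 probes 1 had a called interaction (0.49) and 1 did not (0.43, adjusted p over probes 0.0893).

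Genes with and without the ER stress element were set side by side, with no test. With fasting in WT mice the median change was -0.62 over the 11 genes with a full element of either form and -0.78 over the 19 genes with a promoter entry but no element. The medians were -0.21 and -0.44 with fasting in LKO mice, and 0.40 and 0.24 for LKO against WT when fasted. Of the 11 genes with an element, 8 fell in WT mice and 4 in LKO mice, against 17 and 15 of the 19 without. Over all genes 21.8% fell in WT and 26.9% in LKO mice.

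Other genes of the pathway were read through lists that hold none of the 37. The PERK branch and integrated stress response list holds genes that respond to eIF2alpha phosphorylation. Of its 10 genes 4 rose and 2 fell in WT mice, with a median change of 0.06, where 22.6% of all genes rose and 21.8% fell. In LKO mice 7 rose and 1 fell, with a median of 1.01, where 22.9% of all genes rose and 26.9% fell. Between fasted genotypes 7 of 10 were higher in LKO mice (17.9% of all genes), and the interaction was called above 0 for 5 (7.71% of all genes). Atf3, a transcription factor of this branch, rose by 4.38 in LKO mice (SE 0.25, adjusted p = 4.58e-11), with an interaction of 3.45 (SE 0.37, adjusted p = 2.88e-06). Ddit3 (CHOP), the factor tied to prolonged ER stress, was higher by 1.76 in fasted LKO than in fasted WT mice (SE 0.20, adjusted p = 6.83e-07). Trib3, a pseudokinase induced by CHOP, rose by 2.03 in WT (SE 0.24, adjusted p = 1e-06) and by 2.96 in LKO mice (SE 0.22, adjusted p = 1.59e-09). Chac1, a glutathione-degrading enzyme of this branch, fell by 1.58 in WT mice (SE 0.39, adjusted p = 0.0025).

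Chaperones and folding enzymes outside the list were read against the 21.8% of all genes that fell with fasting in WT and the 26.9% that fell in LKO mice. Of 19 other chaperones and cochaperones 13 fell and 2 rose in each genotype, with median changes of -0.35 in WT and -0.19 in LKO mice. Of 14 other oxidoreductases 11 fell in WT and 12 in LKO mice. Txndc5, a disulphide isomerase, fell by 0.98 in WT (SE 0.06, adjusted p = 1.38e-10) and by 1.02 in LKO mice (SE 0.05, adjusted p = 1.28e-11). Of 21 other translocation and signal peptidase genes 15 fell in WT and 14 in LKO mice. Sec61g, the small subunit of the channel, fell by 1.32 in WT (SE 0.08, adjusted p = 1.16e-10) and by 1.09 in LKO mice (SE 0.07, adjusted p = 2.35e-10), and Ssr3 by 1.07 and 0.93.

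Markers of other liver cells moved as follows. Endothelial markers, all 10 tested, were higher with fasting in WT mice for 6 genes (22.6% of all genes). With fasting in LKO mice 1 was higher and 4 lower (22.9% and 26.9% of all genes), and 9 were lower in fasted LKO than in fasted WT mice (20% of all genes). Their summed linear level was 45.0 to 57.1 in fed WT, 50.4 to 74.0 in fasted WT, 42.5 to 59.7 in fed LKO and 35.4 to 44.3 in fasted LKO mice. Of 10 hepatocyte markers 2 rose and 2 fell with fasting in WT mice, and their differences between fasted genotypes ran from -0.22 to 0.12, none of them called. T and NK cell markers summed to 25.6 to 34.4 in fed WT, 44.6 to 62.9 in fasted WT, 31.1 to 39.5 in fed LKO and 49.4 to 58.7 in fasted LKO mice, with Cd8a never above background. Most of that sum was Cd4 (mean linear level 28.1 in fed and 50.5 in fasted WT mice), the only one of the 7 called higher with fasting in WT mice, while Cd3g, Nkg7 and Gzma fell by 0.74, 0.51 and 0.47. Neutrophil markers summed to 2.84 to 3.54 in fed WT, 2.36 to 2.95 in fasted WT, 2.90 to 6.77 in fed LKO and 2.63 to 3.27 in fasted LKO mice. Macrophage, stellate and cholangiocyte markers had at most 1 of their genes called between fasted genotypes. The part of these cells in the results was not tested.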

How the data were processed

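Total liver RNA was read on 1-colour Agilent arrays, 24 for 22 animals. Per the file headers, the deposited scanner files hold intensity values from Agilent Feature Extraction 10.10.1.1, in which the processed signal is background-subtracted and detrended, with probe positions on mm9. The authors' deposited table holds log2 values of the same arrays, with identical columns for repeat arrays, a correlation of 0.993 with the scanner values (median over arrays) and column medians of 8.16 to 8.17. Its normalization is not given in the sources used here, where the submitters' processing notes name limma. It served as an alternative.

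From the scanner files, log2 of the processed signal minus the array's 75th percentile was taken, repeat arrays were averaged, and of 46291 probes with a symbol the 28138 well above background in at least 5 animals were kept. Each of 17215 genes was read by whichever of its kept probes was brightest on average. Means of the 4 groups were fitted with limma 3.58.1 in R 4.3.3 (lmFit, eBayes), and p-values were adjusted by Benjamini-Hochberg over all genes. Tests were checked on simulated data. Promoters were searched with python 3.11.15.

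The 37 genes and all other lists were chosen with earlier results of these data known. Values of each WT animal, and the lowest, median and highest of each LKO group, are given for Xbp1, Hspa5, Atf6, Ern1 and Eif2ak3 and for the 3 called genes with the largest fasting change in each role. For Bhlha15 in fasted WT mice only the range is given. Of the pathway lists, up to 3 called genes with the largest change per comparison could be named. Herpud1, Os9, Derl3 and the dimmer Dnajb11 probe were singled out after their values were seen.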

Additional observations from a re-analysis of the deposited data

Results flagged for a closer look

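In 172 sets of 5 or 6 animals, made up of 43 values in each of 4 groups, 10 had 1 animal far from the others, where chance gives about 1 in 20 (5%). In fed LKO mice, replicate 3 stood above the others for Edem1 (4.44, others 3.75 to 4.00) and Sec61a1 (5.79, others 5.35 to 5.52). In fasted LKO mice, replicate 5 stood above the others for Bhlha15 (-2.15, others -5.25 to -4.32), Hsp90b1 (7.52, others 6.79 to 7.04), the mean of the sensors and transcription factors (2.06, others 1.40 to 1.53) and the mean of ER-associated degradation (4.28, others 3.70 to 3.92). The mean of the sensors and transcription factors includes Bhlha15, so its flag is not independent of the Bhlha15 flag, and it was not computed without that gene. Replicate 3 of the fasted LKO mice was low for Edem2 (-1.08, others -0.84 to -0.73). In fed WT mice, replicate 5 was low for Canx (5.42, others 5.64 to 5.67) and Sdf2l1 (2.33, others 2.82 to 3.02). In fasted WT mice, replicate 4 was high for Bhlha15 (-6.02, others -7.18 to -6.96), where all signals are below background.

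The fasting change differed between genotypes by the interaction term of limma for 7 of the 37 genes, each more positive in LKO mice. That is 18.9% of the list, near the 18.5% of all genes called in either direction, of which 7.71% were above 0 and 10.8% below. The differences were 1.55 for Eif2ak3, 0.74 for Herpud1, 0.48 for Pdia6, 0.45 for Sec61a1, 0.40 for Atf6 and 0.35 for Ero1lb, with adjusted p between 5.76e-06 for Eif2ak3 and 0.0309 for Ero1lb. For Bhlha15 the fitted difference was 2.42, but it rests on signals below background in fasted WT mice, and it was 0.33 after normexp and 0.71 in the authors' deposited table, not called in either.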

How the results depend on the processing

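The count of called genes stayed within 1.5 times under every alternative for both fasting comparisons and both genotype comparisons. For the interaction it was 11, all above 0, in the authors' deposited table, and on leaving out 1 animal it ranged from 6 to 18, all above 0 at the highest, which was without fed LKO replicate 3; the count below 0 ranged from 0 to 1, the 1 being Edem1 without fasted LKO replicate 5. The count of genes that rose with fasting in WT mice, 1 (Atf6), was 0 in the deposited table, with no filter on dim probes and with the mean of the probes of a gene, and 0 to 1 on leaving out 1 animal. The mean of the probes reversed Atf6 with fasting in WT (-0.074), Dnajb11 with fasting in WT (0.055) and in LKO mice (0.73), which includes the probe that rose, and the interaction of Sec24b, an ER vesicle coat gene (-0.076). Slides are not named in the labels, so arrays with the same scan time in the file headers were taken as a slide. Within slide 3 alone Creb3l2 with fasting in LKO mice was 0.042, with no test. The alternatives for roles, pathway lists and their genes were chosen after seeing the data.

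With the replicate block, the counts were 32, 28, 0, 17 and 7 for fasting in WT, fasting in LKO, fed genotypes, fasted genotypes and interaction, and Creb3l2 with fasting in LKO mice was the call lost. Replicate numbers did not pair the animals: of 31 pairs with the same number, 5 had a correlation of deviations above 0.1 (range -0.18 to 0.18). With the slide, inferred from scan times, as a block the counts were 32, 29, 0, 19 and 7. Signal over background limits Bhlha15, which was below it in all fasted WT mice and in 2 of 6 fasted LKO mice.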

Other observations

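Genes of N-glycosylation and glycan trimming, which attach and edit the sugar chains that lectin chaperones read, mostly fell with fasting. Of 28 tested, 21 fell and 1 rose in WT mice, and 25 fell and 1 rose in LKO mice, where 21.8% of all genes fell and 22.6% rose in WT and 26.9% fell and 22.9% rose in LKO mice. Ostc, a subunit of the oligosaccharyltransferase, fell by 1.27 in WT (SE 0.11, limma adjusted p = 1.21e-08) and by 1.23 in LKO mice (SE 0.10, adjusted p = 3.51e-09). Uggt1, the glucosyltransferase that tags unfolded glycoproteins for calnexin, fell by 1.17 and 0.88, and was higher by 0.35 in fasted LKO than in fasted WT mice (SE 0.08, adjusted p = 0.00211).

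Of 24 genes of ER to Golgi vesicles, 10 were lower and 5 higher in WT and 9 lower and 5 higher in LKO mice, the higher counts being near the shares over all genes given above. Sec23b, a coat subunit of vesicles that leave the ER, fell by 1.14 in WT and by 0.95 in LKO mice. Of 23 degradation genes outside the list of 37, 8 were higher and 6 lower in WT and 12 higher and 6 lower in LKO mice, the lower counts being near those shares. Among 12 other regulators, Creb3l3 (CREBH), a liver transcription factor anchored in the ER, rose by 0.73 in WT and by 0.62 in LKO mice, and was lower in LKO than in WT mice both fed (-0.41, SE 0.07, adjusted p = 0.000533) and fasted (-0.51, SE 0.07, adjusted p = 3.27e-06).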
